A study of Mus musculus with 4 samples.

Results

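The mouse genes whose symbol is Zfp followed by a number encode zinc finger proteins, and 257 of the 16593 genes on the array belonged to this set by their platform symbol. They were represented by 351 of 25697 probes. Zfp42 and Zfp687 were not counted as members, and symbols with a trailing letter, such as Zfp36l1, were not taken. For each gene the probe with the highest mean log2 intensity over the 4 arrays stood for the gene, and a gene was called bright when that mean corresponded to an intensity of at least 100. By this measure 95 members were bright and 162 were dim. The mean ran over both groups of cells compared below, so a bright gene could read under 100 in either group. Likewise a dim gene could read above 100 in either group. How this rule bears on the shares of changed genes was not tested.

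Most proteins of this family carry C2H2 zinc fingers, short folds held together by a zinc ion that read DNA bases, and in many of them the fingers stand in long rows. A large subgroup also carries a KRAB domain, which recruits the corepressor KAP1 (gene Trim28). KAP1 in turn brings the histone H3K9 methyltransferase SETDB1 and HP1 proteins, and the system silences retroviruses and other mobile elements in embryonic stem (ES) cells. Other members are RNA-binding proteins or classical transcription factors, and several belong to the pluripotency network.

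Total RNA was measured on Illumina mouse bead arrays in 2 samples of epiblast stem cells (EpiSCs), pluripotent cells derived from the postimplantation epiblast, and in 2 samples of converted ES cells named parnate/mAMFGi. Parnate (tranylcypromine) inhibits the histone demethylase LSD1; mAMFGi is a mixture that the labels do not spell out. The medium of the EpiSCs held serum replacement and bFGF, and the growth protocol of the converted cells gives serum medium with LIF. Both were grown on irradiated mouse embryonic fibroblasts, so each RNA sample may hold feeder RNA, and medium and group cannot be told apart. The labels call the samples biological replicates. They name no genotype, strain, line or clone. The comparison asks which genes differed after EpiSCs were converted.

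Values are the authors' processed intensities. The EpiSC arrays had median intensities of 50 and 50.3, the 2 converted arrays each had 52, and the lowest value was 25.5, so a background level remained in every value and folds of dim genes are understated. The identity of the cells was checked with marker lists. Pou5f1, the core pluripotency factor, read 10270.8 ± 909 in EpiSCs and 10198.5 ± 766 in converted cells (mean ± SD, n = 2 per group, here and below). Of 7 measured ES cell markers 6 rose, with Esrrb at 86.85 ± 1.63 and 2907.4 ± 230, with Nr0b1 not passing. Of 7 epiblast and shared pluripotency markers 3 rose (Sox2, Otx2 and Pou3f1), 3 fell (Lefty1, Fgf8 and Fgf5) and Pou5f1 did not pass. Of 11 measured fibroblast markers 8 rose, 1 (Thy1) fell and 2 did not pass. Their summed intensity lay between 1179.0 and 1333.1 in EpiSCs and between 3109.0 and 3446.7 in converted cells. These markers moved with the groups, and their part in the changes below was not tested. In bulk RNA, fewer cells of a type and less RNA per cell cannot be told apart.

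Zfp-named genes changed in both directions in nearly equal numbers. Of 257 genes, 61 were higher (37 without parnate/mAMFGi replicate 2) and 64 lower in parnate/mAMFGi cells, and 132 did not pass an adjusted p of 0.05 (limma, Benjamini-Hochberg adjustment over all probes). The 125 changed genes make up 48.6% of the members, against a background of 41.5% of all genes by the same probe rule (20.2% up and 21.2% down). At least 2-fold changes were called in 16 members up and 12 down (10.9%), where 5.11% of all genes were called up, 6.32% down and 11.4% in either direction. The groups did not overlap for 75.9% of members and 66.1% of all genes. The share followed brightness. Among bright members 71 of 95 changed (74.7%), 35 up and 36 down, against 72.8% of all bright genes (33.4% up and 39.3% down). Among dim members 54 of 162 changed (33.3%), 26 up and 28 down, against 22.1% of all dim genes (12.1% up and 10% down). The groups did not overlap for 69.8% of dim members and 54% of all dim genes. The dim members' median intensity was 49.3 and that of all dim genes 42.4. The bright members' share is near the background, and the differences in shares were not tested.

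**Figure D1:**
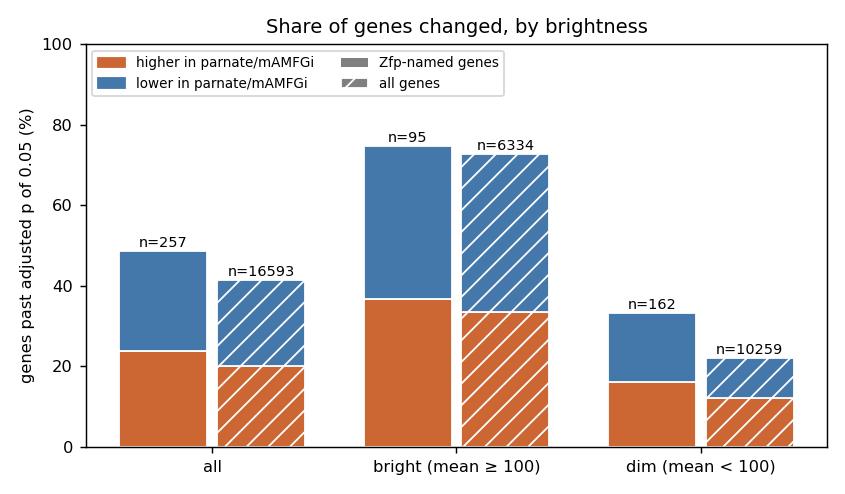
Percent of genes past an adjusted p of 0.05 (y axis), split into higher (orange) and lower (blue) in parnate/mAMFGi cells, for Zfp-named genes (plain bars) and all genes on the array (hatched bars), over all, bright and dim genes with n above each bar. Among bright genes the paired bars reach 74.7% and 72.8%.

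At least 2-fold changes were found in 21 bright members (22.1%), 12 up and 9 down, against 23.9% of all bright genes (9.99% up and 13.9% down). The median log2 fold change of the bright members was -0.04, beside -0.07 for all bright genes, and the median absolute change was 0.61 beside 0.53. The groups did not overlap for 82 bright members, or 86.3%, where 85.7% of all bright genes did so. Members did not move one way as a set. Their range was wide, from -2.58 (Zfp334) to 3.42 (Zfp819) on the log2 scale. The rule for a bright gene separates members by a small step: Zfp551, just inside, had a mean intensity of 101.5 and Zfp661, just outside, 99.7.

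**Figure D2:**
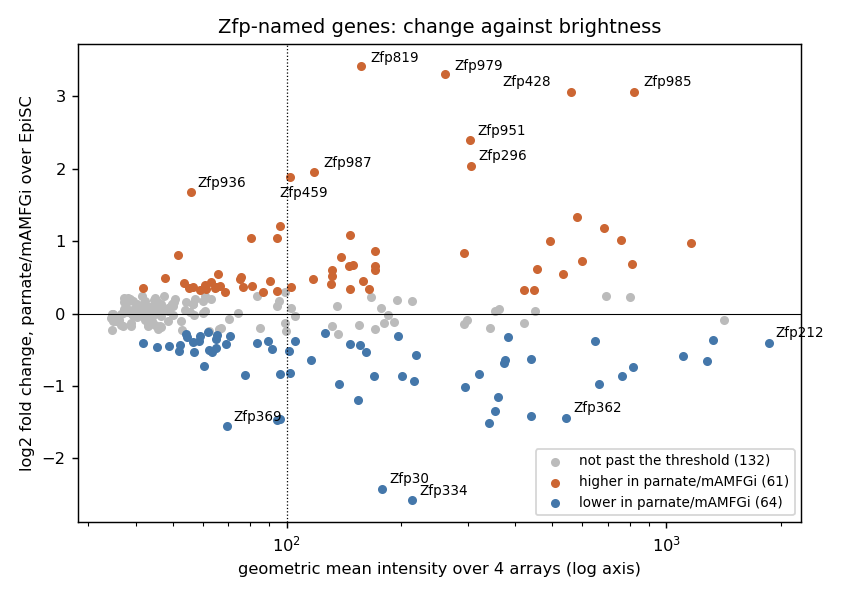
Log2 fold change of parnate/mAMFGi over EpiSC (y axis) against the geometric mean intensity over the 4 arrays (log x axis) for the 257 Zfp-named genes, coloured by call, with the limit of 100 as a dotted line. Points above 3 on the y axis are Zfp819, Zfp979, Zfp985 and Zfp428, and Zfp334 and Zfp30 are the lowest.

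The largest rises were in Zfp819, Zfp979, Zfp985 and Zfp428, followed by Zfp951, Zfp296, Zfp987 and Zfp459. Of these, Zfp819, Zfp979, Zfp987 and Zfp459 read under 100 in both EpiSC samples and were bright through their converted values. Zfp985, Zfp428, Zfp951 and Zfp296 read above 100 in all samples. Zfp819, a KRAB zinc finger gene of pluripotent cells and testis reported to repress mobile elements, read 43.6 and 52.7 in the EpiSC samples and 458.1 and 575.6 in the converted samples. Its EpiSC values were at the array medians, so the log2 fold change of 3.42 (SE 0.12, limma adjusted p = 2.39e-11) understates the rise. Zfp985 was the brightest of this group, with 288.0 and 282.4 in EpiSCs and 2151.1 and 2639.2 in converted cells, an 8.35-fold rise (log2 fold change 3.06, SE 0.11, limma adjusted p = 1.98e-11). In contrast to Zfp819, it was well above the array medians in EpiSCs too. Zfp979 read 80.1 and 86.1 against 722.9 and 934.9, a 9.90-fold rise (SE 0.12 on the log2 scale, limma adjusted p = 2.18e-11). Zfp987 lies in the same chromosome 4 array of genes and read 57.1 and 63.1 against 209.1 and 259.0 (log2 fold change 1.95). The array is here the 18 coding genes between Gm42346 and Miip. The stricter rule for runs of neighbours used below leaves Zfp987 out of the run with Zfp985 and Zfp979. Zfp982 and Zfp933, also members of that array, were not called higher: Zfp982 read 42.3 and 43.9 against 50.6 and 45.7 and did not pass (limma adjusted p = 0.244), and Zfp933 fell from 61.5 and 70.3 to 49.0 and 57.3 (limma adjusted p = 0.033).

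The upstream sequences of the 3 chromosome 4 genes that rose are shown because they are near copies of each other. They are the 250 bases before the annotated start, from RefSeq (GRCm38.p6), written 5′ to 3′ in the direction of the gene. Zfp985 is chr4:147553027-147553276 on the plus strand, Zfp979 is chr4:147642509-147642758 on the minus strand and Zfp987 is chr4:146097062-146097311 on the plus strand. Capitals mark the longest runs of letters that all 3 share, 2 runs of 21 bases each.
Zfp985: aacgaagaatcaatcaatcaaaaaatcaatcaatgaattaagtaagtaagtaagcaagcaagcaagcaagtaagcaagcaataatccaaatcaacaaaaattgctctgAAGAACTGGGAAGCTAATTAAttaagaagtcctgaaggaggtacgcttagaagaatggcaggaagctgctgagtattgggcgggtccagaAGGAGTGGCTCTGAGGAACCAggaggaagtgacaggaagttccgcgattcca
Zfp979: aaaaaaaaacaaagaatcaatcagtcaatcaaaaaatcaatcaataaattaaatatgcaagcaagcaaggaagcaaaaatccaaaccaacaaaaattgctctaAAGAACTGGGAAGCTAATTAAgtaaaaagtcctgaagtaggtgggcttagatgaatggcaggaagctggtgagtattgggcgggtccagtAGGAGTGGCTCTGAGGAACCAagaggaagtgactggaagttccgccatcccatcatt
Zfp987: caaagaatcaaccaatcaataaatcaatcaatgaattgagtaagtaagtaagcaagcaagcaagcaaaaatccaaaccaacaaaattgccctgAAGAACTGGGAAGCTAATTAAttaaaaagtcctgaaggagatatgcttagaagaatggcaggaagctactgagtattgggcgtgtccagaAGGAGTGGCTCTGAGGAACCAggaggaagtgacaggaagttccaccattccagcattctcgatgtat

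Over these 250 bases Zfp985 and Zfp987 had 88.8% identical letters in a gapped alignment, Zfp985 and Zfp979 86.4%, and Zfp987 and Zfp979 85.2%. The median over all 21736 pairs of the 209 members with a promoter in the table was 58.0%, and 14 pairs reached 70%. Each of the 2 capital runs, searched on both strands, was found upstream of the same 8 of 27025 genes, or 0.0296%. These were Zfp985, Zfp979 and Zfp987, and Rex2, Zfp534, Zfp600, Zfp980 and Zfp988 of the same array. Of the last 5, Rex2 was measured. Rex2, a zinc finger gene not counted as a member by its name, read 31.3 and 34.9 in EpiSCs and 64.6 and 86.7 in converted cells (log2 fold change 1.18, limma adjusted p = 2.20e-06). The 4 measured genes with these runs were each higher in both converted samples than in both EpiSC samples. The groups did not overlap, in either direction, for 66.1% of all genes. The runs were defined from Zfp985, Zfp979 and Zfp987, which had risen, so of the 4 genes only Rex2 was not part of that choice. All 4 were looked up after the values were known, and close copies such as these may share probe signal, which was not tested here. A match of letters is a description and not a binding site.

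**Figure D3:**
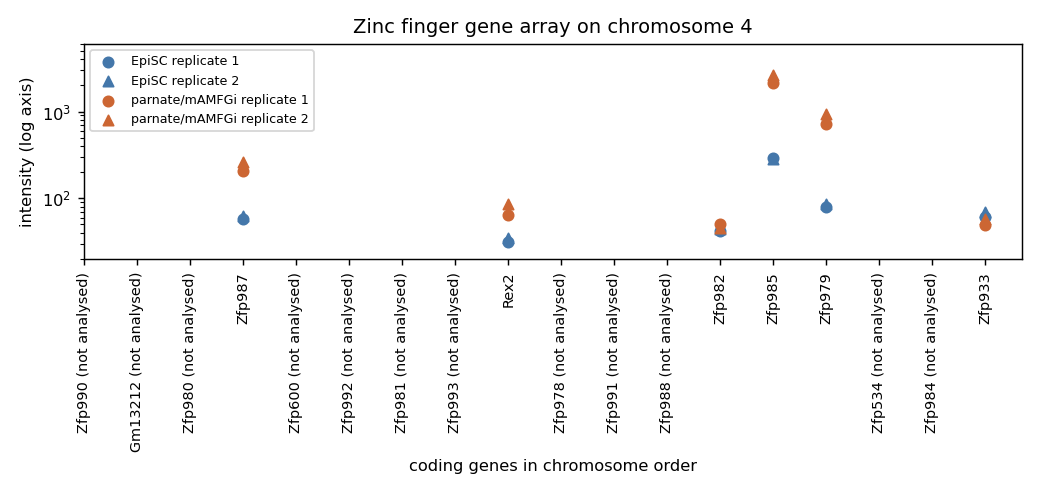
Intensity (log y axis) in each of the 4 samples for the 18 coding genes of the zinc finger gene array on chromosome 4 in chromosome order (x axis), with blue for EpiSC and orange for parnate/mAMFGi. Zfp987, Rex2, Zfp985 and Zfp979 lie higher in both orange samples, and the genes without points were not analysed here.

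The sequences upstream of Zfp819 and Zfp334, the largest rise and the largest fall among bright members by their brightest probes, are shown for their CpG dinucleotides, the sites of DNA methylation. Zfp819 (chr7:43606919-43607168 on the plus strand) had 17 CpGs in 250 bases and Zfp334 (chr2:165388260-165388509 on the minus strand) 13, against 5 for Zfp985 and 2 for both Zfp979 and Zfp987. Capitals mark the CpGs.
Zfp819: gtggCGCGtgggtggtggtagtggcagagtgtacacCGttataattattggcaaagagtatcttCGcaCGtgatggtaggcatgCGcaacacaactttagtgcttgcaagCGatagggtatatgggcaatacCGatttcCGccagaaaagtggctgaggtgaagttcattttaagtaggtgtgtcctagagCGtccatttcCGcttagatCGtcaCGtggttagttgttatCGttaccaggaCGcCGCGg
Zfp334: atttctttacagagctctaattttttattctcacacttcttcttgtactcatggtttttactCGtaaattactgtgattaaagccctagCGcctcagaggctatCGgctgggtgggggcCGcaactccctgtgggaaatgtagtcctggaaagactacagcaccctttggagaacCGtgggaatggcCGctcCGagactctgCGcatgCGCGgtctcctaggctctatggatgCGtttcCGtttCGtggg

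Across the 209 members with a promoter the median was 12 CpGs, against 6 for all 27025 promoters. It was 11.0 for the 31 bright members that rose, 14.5 for the 28 that fell and 13.0 for the 20 that did not pass. Upstream of members the ETS-type core GGAAGTG, searched on both strands, was found in 19.6% (41 of 209), beside 8.61% of all promoters. It stood in 25.8% (8 of 31) of bright members that rose and 21.4% (6 of 28) of those that fell. Zfp985, Zfp979 and Zfp987 are 3 of these 8, although their upstream sequences are near copies. In these 3 the core does not overlap the shared runs. CCAAT was found in 45.9% of members and 34.5% of all promoters, with 58.1% of bright members that rose, 25.0% of those that fell and 14 of the 20 that did not pass. The same 3 near copies hold CCAAT on the opposite strand, so they are counted separately in the 58.1% too. The E-box CACGTG was found in 8.13% of members and 6.04% of all promoters, GGGCGG in 42.1% and 33.0%, and ATGCAAAT in 2.87% and 1.62%. These shares were not tested.

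Zfp428, Zfp951, Zfp459 and Zfp710 were also among the largest rises. Zfp428 read 164.1 and 228.5 in EpiSCs and 1704.3 and 1535.1 in converted cells (log2 fold change 3.06, adjusted p = 1.71e-10 by limma). Its other probe was dim, from 51.1 to 59.0 over the arrays, and did not pass, and with probes averaged the log2 fold change was 1.61. Zfp951 read 124.2 and 141.4 against 645.3 and 751.3, a 5.25-fold rise. Zfp459 read 55.6 and 50.5 against 203.0 and 189.1, so its EpiSC values were near the array medians. Log2 fold changes were 1.33 for Zfp710 and 1.09 for Zfp771. Among these rises the samples of a group differed most in Zfp771, with 82.2 and 123.0 against 246.1 and 186.2. The choice of these genes required groups that did not overlap.

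Among the 12 largest falls, Zfp334 and Zfp30 stood apart. Both were bright through their EpiSC values and read under 100 in both converted samples. Zfp334 fell from 602.1 and 452.5 in EpiSCs to 91.7 and 83.2 in converted cells, 5.98-fold (log2 fold change -2.58, SE 0.12, limma adjusted p = 5.01e-10). Its second probe was dim on all arrays and did not pass, and with probes averaged the fall was 1.31 on the log2 scale (a log2 fold change of -1.31), smaller than that of Zfp30. Zfp30, a KRAB zinc finger gene, fell from 424.9 and 400.5 to 76.0 and 78.6, 5.34-fold (SE 0.09 on the log2 scale, limma adjusted p = 5.55e-11). No other bright member fell by more than 1.52 on the log2 scale, the value of Zfp787. Zfp787 read 541.2 and 614.3 against 194.3 and 208.8, and both of its probes fell. Zfp362 read 1004.9 and 797.0 against 311.4 and 350.5 (log2 fold change -1.44). Zfp608 read 815.7 and 635.2 against 271.2 and 269.7 (-1.41). Log2 fold changes were -1.19 for Zfp90, a KRAB repressor gene, -1.16 for Zfp12, -1.02 for Zfp637, -0.97 for both Zfp512 and Zfp94, and -0.94 for Zfp37. In each of the 12 both EpiSC samples were above both converted samples, as the choice of these genes required. The groups did not overlap for 85.7% of all bright genes.

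**Figure D4:**
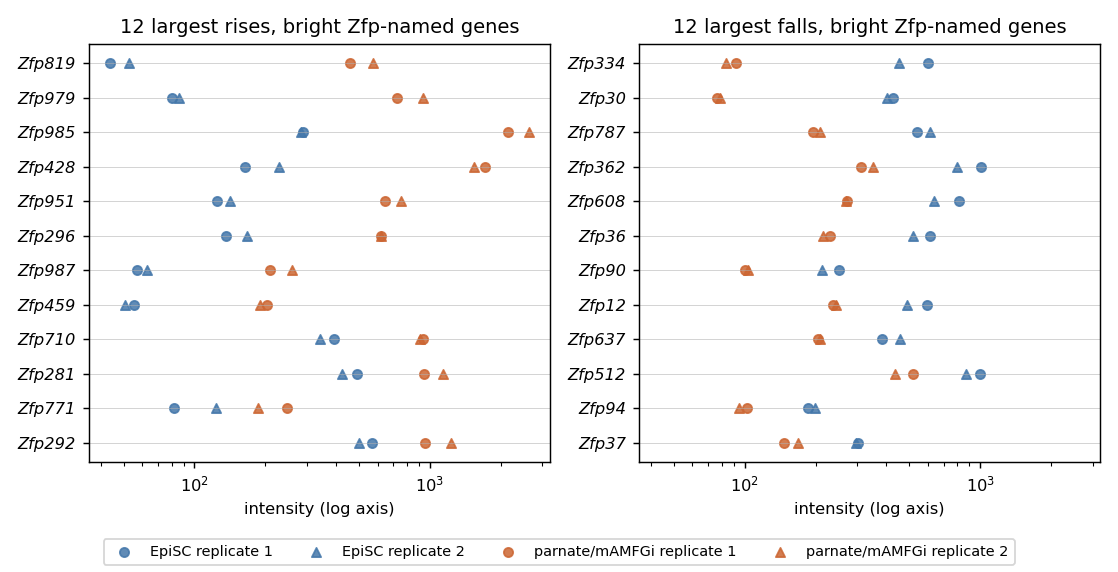
Intensity (log x axis) in each of the 4 samples for the 12 largest rises (left) and 12 largest falls (right) among bright Zfp-named genes, with blue for EpiSC, orange for parnate/mAMFGi and the marker shape for the replicate. The groups do not overlap in any row, as the choice of rows required, and Zfp819 has the widest gap.

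Members known as regulators of pluripotent cells were higher or did not pass. Of 11 listed, 8 were measured, 5 rose and 3 did not pass. That is 62.5% changed with 62.5% bright, beside 41.5% of all genes, 72.8% of bright and 22.1% of dim genes. The median log2 fold change was 0.48, beside 0.02 over all genes. This list, like the lists below, was chosen with earlier results of these data known. Zfp296, a partner of Klf4 that aids reprogramming, read 136.6 and 167.5 in EpiSCs and 621.6 and 621.3 in converted cells, a 4.11-fold rise (SE 0.11 on the log2 scale, limma adjusted p = 1.33e-09), and both of its probes rose. Zfp281, a GC-rich element binder that interacts with core pluripotency factors, read 491.6 and 421.6 against 944.3 and 1135.3 (log2 fold change 1.19, limma adjusted p = 6.77e-07). Zfp131, a BTB-domain zinc finger gene, read 469.7 and 464.3 against 724.1 and 822.3. Zfp207 (BuGZ), a spindle and splicing protein gene, read 371.9 and 366.3 against 563.9 and 570.9. The groups did not overlap in any of these 4, as in 85.7% of all bright genes. Zfp219 read 658.6 and 618.6 against 744.6 and 758.8 and did not pass (limma adjusted p = 0.062, from 0.0172 to 0.255 over 15 alternatives, past the threshold in 5). Zfp462 rose by 0.34 on the log2 scale at low intensity, and Zfp217 and Zfp706 were near the array medians in all samples.

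Of 7 listed genes that silence mobile elements or guard imprints, 4 were measured, of which 3 rose and 1 did not pass. That is 75.0% changed with 2 of the 4 bright, against 41.5% of all genes, 72.8% of bright and 22.1% of dim genes. Besides Zfp819, Zfp809, which binds the primer site of a murine leukaemia virus and recruits KAP1, read 115.9 and 121.1 in EpiSCs and 175.7 and 201.2 in converted cells (log2 fold change 0.67, SE 0.10, limma adjusted p = 6.42e-05). Zfp568, a repressor of an Igf2 transcript in mouse, rose by 0.36 on the log2 scale but read 36.5 to 52.6 over the arrays, at background level. Zfp445, an imprint guardian, read 45.4 to 50.9 and did not pass.

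The KRAB members act through KAP1, and in a list of that pathway's genes more rose than fell. Of 25 genes 23 were measured, 10 rose, 2 fell and 11 did not pass, or 52.2% changed, against 41.5% of all genes and 72.8% of bright genes. By direction, 43.5% rose and 8.7% fell. That compares with 20.2% and 21.2% of all genes and 33.4% and 39.3% of bright genes, and the difference was not tested. Of the 23 genes 69.6% were bright, with a median log2 fold change of 0.16. Trim28 itself read 3687.1 ± 805 in EpiSCs and 7702.75 ± 253 in converted cells (a rise of 1.08 ± 0.13 SE on the log2 scale, limma adjusted p = 5.51e-06). The remodeler gene Smarcad1, whose product binds KAP1, rose from 441.35 ± 50.6 to 1802.7 ± 215, the largest change in the list (2.03). Daxx, a chaperone of histone H3.3, rose by 1.21 on the log2 scale, Morc2a by 1.08, the histone deacetylase gene Hdac1 by 0.94 and the H3K9 methyltransferase gene Ehmt2 by 0.60. The 2 that fell were Setdb1 (1086.65 ± 224 against 806.15 ± 15.5, log2 fold change -0.42, limma adjusted p = 0.0135) and Hdac2 (-0.63). Dnmt1 and Uhrf1 did not pass.

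**Figure D5:**
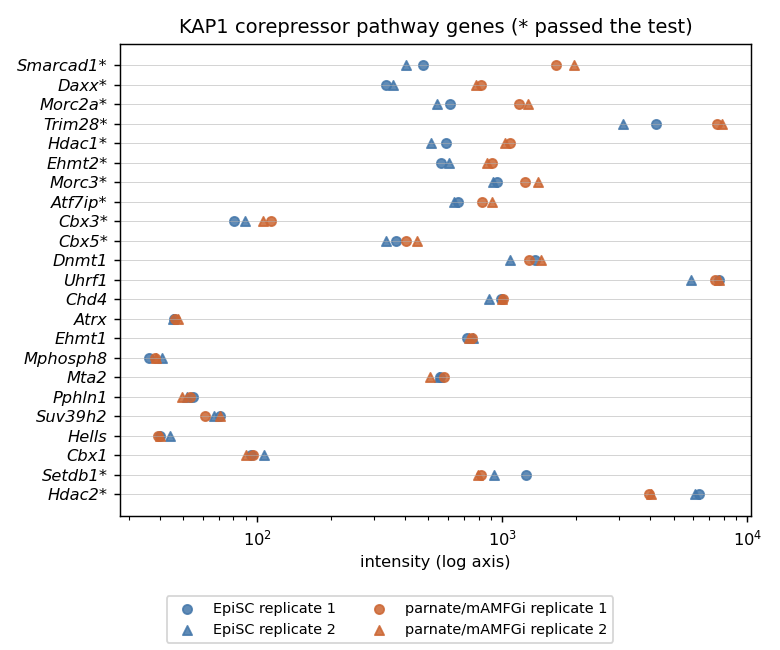
Intensity (log x axis) in each of the 4 samples for the 23 measured genes of the KAP1 corepressor list, ordered by log2 fold change, with an asterisk for the 12 that passed an adjusted p of 0.05. Smarcad1, Daxx, Morc2a and Trim28 lie at the top with orange (parnate/mAMFGi) to the right of blue (EpiSC).

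Of 10 members with roles in RNA metabolism 5 rose, 1 fell and 4 did not pass, or 60.0% changed with 60.0% bright, against 41.5% of all genes and 72.8% of bright genes. The fall was in Zfp36 (tristetraprolin), which marks AU-rich mRNAs for decay and whose gene responds to growth factors. It read 614.8 and 518.3 in EpiSCs and 229.7 and 214.4 in converted cells (log2 fold change -1.35, SE 0.10, limma adjusted p = 8.00e-08). Zfp638, a splicing-associated RNA binder, rose from 210.8 and 230.0 to 366.8 and 419.1, and Zfp207 is counted here too. Zfp106 rose by 0.40 on the log2 scale, with an adjusted p from 0.000983 to 0.085 over 15 alternatives and 3 that lost the call, each of them the fit without 1 sample (0.0578 without EpiSC replicate 2, 0.0578 without parnate/mAMFGi replicate 1 and 0.085 without parnate/mAMFGi replicate 2). The brightest probes of Zfp326 and Zfp346 did not pass, but dimmer probes of the same genes rose, by 0.57 and 0.53 in Zfp326 and by 0.93 in Zfp346.

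Among 16 listed genes of development and lineage, 14 were measured, 6 rose, 2 fell and 6 did not pass. That is 57.1% changed with 35.7% bright, against 41.5% of all genes, 72.8% of bright and 22.1% of dim genes. Zfp292, a large zinc finger transcription factor gene, rose from 567.0 and 501.3 to 949.8 and 1227.6 (log2 fold change 1.02). Zfp64 rose from 636.9 and 641.8 to 1002.8 and 1053.0 (0.68), with all 3 probes up. The epidermal regulator gene Zfp750 rose from 120.1 and 133.7 to 222.7 and 237.8 (0.86). The falls were in the dim genes Zfp521 (-1.46, with a second probe at -0.12 that did not pass) and Zfp516 (-0.38). Zfp148 read 182.2 and 163.1 against 169.9 and 195.5 and did not pass. Of 11 listed genes of testis, germ cells and the early embryo 7 were measured, 3 rose, 1 fell and 3 did not pass. That is 57.1% changed with 57.1% bright, against the same shares of all, bright and dim genes. Zfp35 (log2 fold change 0.66) and Zfp105 (0.61) rose, and Zfp37 fell from 301.7 and 297.6 to 146.4 and 167.7. Zfp318 rose by 0.32, a call lost in 5 of 15 alternatives (adjusted p 0.00992 to 0.215), 3 of them fits without 1 sample: EpiSC replicate 2 (0.113), parnate/mAMFGi replicate 1 (0.0565) and parnate/mAMFGi replicate 2 (0.215). The 2-cell gene Zfp352 was at background level in all samples. Zfp207, Zfp219 and Zfp57 each stand in 2 of these lists, and of these Zfp57 was not measured.

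The 5 brightest members were Zfp212, Zfp263, Zfp639, Zfp330 and Zfp97 by mean intensity, of which 3 fell, 1 rose and 1 did not pass, where 72.8% of all bright genes changed. Zfp212 read 2206.5 and 2070.8 in EpiSCs and 1596.2 and 1639.1 in converted cells (log2 fold change -0.40), and its 4 other probes, all dimmer, did not pass, so the call was lost when probes were averaged (limma adjusted p = 0.365, in a range of 0.00122 to 0.365). Zfp263, a factor with many genomic sites, read 1408.4 and 1510.4 against 1324.1 and 1426.9 and did not pass. Zfp330, a nucleolar protein gene, fell by 0.66 on the log2 scale and Zfp639 by 0.37, a Zfp639 call that was lost when parnate/mAMFGi replicate 1 was left out (limma adjusted p = 0.0855) or after a normexp background step with offset 16 (0.0585; all alternatives 0.0023 to 0.0855). The second probe of Zfp330 was dim and did not pass, and with probes averaged its log2 fold change was -0.35. Zfp97 rose from 766.3 and 894.3 to 1468.1 and 1809.4 (0.98, or 0.59 with probes averaged).

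Zfp genes often lie in arrays of related copies. Several runs of neighbouring members, set by gene order alone, held both rises and falls, where 23.7% of all members rose and 24.9% fell. Members were present on 20 chromosomes, with 71 on chromosome 7, 30 on chromosome 17 and 21 on chromosome 13. On chromosome 7, 17 rose and 20 fell. On chromosome 4, 11 of 14 members changed (6 up and 5 down, 8 of the 14 bright), and on chromosome X 1 of 7 (1 bright), where 41.5% of all genes, 72.8% of bright and 22.1% of dim genes changed. These 2 are picked from the 20, and others were more extreme. All 3 members on chromosome 12 fell, and none of the 5 on chromosome 14 or the 5 on chromosome 16 changed. Differences between chromosomes were not tested. Grouping members with at most 5 other coding genes between them gave 19 runs of at least 3 members, which held 111 genes. In runs 49 changed (44.1%), 23 up and 26 down, against 76 of 146 outside (52.1%), beside 41.5% of all genes. The members in runs had a median intensity of 58.7 with 27.9% bright, and those outside 82.2 with 43.8% bright. The run of 10 members on chromosome 13 had 3 rises, 2 falls and 5 that did not pass. That of 17 members on chromosome 17 had 3, 2 and 12. A run of 9 on chromosome 7, from Zfp180 to Zfp94, had a median intensity of 43.5 and 1 changed gene, Zfp94. Of the 14 pairs with at least 70% of upstream letters identical, 4 had both genes called in the same direction (3 of them among Zfp985, Zfp979 and Zfp987), 1 had opposite calls, and in 9 at least 1 gene did not pass. Zfp758 and Zfp943 on chromosome 17, with 96.8% of upstream letters identical, both fell, by 0.85 and 0.58 on the log2 scale. The pair with opposite calls was Zfp58 and Zfp748 on chromosome 13, with 70.4%, which went down by 0.49 and up by 0.30.

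Of the dim members, 7 passed with at least a 2-fold change, 4 up and 3 down (4.32%, where 2.1% of all dim genes were called up, 1.62% down and 3.71% in either direction), and they were picked out after their values were seen. Zfp936 on chromosome 7 rose from 28.8 and 33.9 to 92.3 and 107.3 (log2 fold change 1.67), Zfp213 from 59.2 and 67.7 to 153.6 and 138.2, Zfp345 by 1.04 and Zfp658 by 1.04 on the log2 scale. Zfp369 fell from 117.8 and 119.8 to 41.1 and 39.9 (-1.55), Zfp521 by 1.46 and Zfp869 by 1.45. Dimmer second probes of Zfp369, Zfp521 and Zfp658 did not pass (log2 fold changes of 0.19, -0.12 and 0.11). Of the 74 members with more than 1 probe the probes differed in call for 35, and no gene had probes called in opposite directions.

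In other families with zinc-binding proteins the share of changed genes lay between 40.0% and 63.3%, beside 41.5% of all genes and 72.8% of bright genes. Of 30 Zbtb genes 19 changed (63.3%, with 46.7% of the family bright), of 17 Zscan and Zkscan genes 10 (58.8%, 47.1% bright), and of 16 Klf genes 9 (56.2%, 56.2% bright). Of 20 Zdhhc genes, which encode zinc-binding acyltransferases, 8 changed (40.0%, 40.0% bright). For the Zfp-named genes the same figures were 48.6% and 37.0%. By direction, 8 were up and 1 down in Klf genes, and 13 and 6 in Zbtb genes. Zscan and Zkscan genes had 4 up and 6 down, Zdhhc genes 4 and 4, and Zfp-named genes 61 and 64. Of all genes 20.2% were up and 21.2% down, so a near-even split was not particular to the Zfp-named genes. None of these differences was tested.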

How the data were processed

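Total RNA of 2 EpiSC and 2 parnate/mAMFGi samples was labelled with biotin by the Illumina TotalPrep kit, per the labels' protocols. The deposited values are linear intensities as the authors processed them, 1 per probe and array; how they were background-corrected and scaled, and with what program, is not given in the sources used here. Another deposited table has 8 value columns under names that match no label, and none was used. Proteins of the members were not analysed here, so the planned classes by fingers and KRAB boxes were not made.

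Intensities were log2-transformed with no pseudocount and no filter, and the groups were tested by limma 3.58.1 under R 4.3.3 (eBayes after lmFit, adjusted over all 25697 probes, threshold 0.05). With 2 residual and 11.8 prior degrees of freedom, p-values rest on a spread shared across probes (prior SD 0.0992 on the log2 scale), and 2 arrays per group limit the precision. The labels do not say whether replicates came from separate cultures or lines, so p-values measure only the spread between these samples. The fit was also run on simulated independent arrays whose variances were drawn from its own estimate. That checks the code only and cannot show whether these samples are independent. Gene symbols came from the platform annotation (23978 of 25697 probes had 1 symbol, none several, 1719 no symbol). All 257 members were found in the RefSeq gene table of GRCm38.p6, which gave chromosomes and gene order. Promoters came from the matching RefSeq table (209 members), with the start nearest the gene's 5′ end, and were aligned in Biopython 1.88.

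Named members were the 12 largest rises and 12 largest falls among bright called genes whose arrays did not overlap, the 5 brightest, the bright members of the role lists and the members at the limit of 100. Members and lists were chosen with earlier results of these data known. The 16 alternatives were scaling, background, filter, pseudocount, variance model, replicate block, leaving out each array, averaging probes and a limit of 200. Correlations over all probes were 0.996 and 0.998 within groups and 0.942 to 0.945 between them.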

Additional observations from a re-analysis of the deposited data

How the results depend on the processing

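The counts of changed genes (Zfp-named genes, their bright part, all probes, all genes, bright genes, the KAP1 list and the named members) stayed within 1.5 times the reported value under all alternatives run, with 2 exceptions. Without parnate/mAMFGi replicate 2, 37 Zfp-named genes were higher in place of 61, and with a limit of 200 for a bright gene 40 of 51 bright members changed in place of 71 of 95. Leaving out each array gave 89 to 121 changed Zfp-named genes, 37 to 56 higher and 47 to 65 lower, 58 to 71 changed bright members and 21 to 23 with at least 2-fold change. It gave 9 to 13 changed KAP1 genes and 35 to 39 changed named members. These fits have fewer samples. Over 675 repeats of the 45 named members, 655 kept their side of the threshold, 12 lost a call (in 5 genes) and 8 gained one. Averaging the probes of a gene moved the calls of Zfp212, Zfp318, Zfp326 and Zfp346. Zfp346 gained its call as a rise (log2 fold change 0.26, beside -0.20 by its brightest probe). The call of Zfp219 moved in that fit too. Zfp219 has 1 probe, so its values stayed the same and only the shared variance and the adjustment differed. Zfp551, near the brightness limit, lost its call without parnate/mAMFGi replicate 1 (adjusted p = 0.0509, range 0.000164 to 0.0509), and Zfp661 gained one after median scaling (0.0395, range 0.0395 to 0.586). The replicate number, taken as a block, gave 125 changed Zfp-named genes, 71 of them bright, and 9912 changed probes against 9870. Same-numbered samples shared only a number: the correlation of their deviations over all probes was -0.0574. Dim genes have compressed folds, since the lowest intensity was 25.5.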
